A study of Mus musculus with 24 samples.

Results

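The circadian clock genes described here are 10 genes found by their symbols among the 23420 rows of each of 4 tables of gene expression from postnatal mouse lung: *Arntl* (BMAL1), *Npas2*, *Clock*, *Per2*, *Per3*, *Cry1*, *Dbp*, *Nr1d1*, *Nr1d2* and *Tef*. All 10 are present in every table, and all 10 passed the filter on low values in every comparison. RNA was sequenced from the whole left lobe of 24 lungs in 8 groups of 3, the mutants being *Sox9Cre*; *Vangl2f/f* or *Sox9Cre*; *Ror2f/f* and the controls wild type, at postnatal day 2 (P2) or 5 (P5), and each mutant group had control lungs of its own. *Vangl2* encodes a core protein of planar cell polarity and *Ror2* a receptor for the ligand Wnt5a, and the study asked how they act in the forming alveoli. *Sox9Cre* expresses Cre from the *Sox9* locus, which is active in the distal lung epithelium and also in cells of other organs, while each lobe was sequenced with its mesenchyme, vessels and blood. The title of the P5 *Vangl2* mutant lungs and of the P2 *Ror2* mutant lungs goes with their table, but their genotype entry names the other gene, and the title was followed. Neither the labels nor the methods give the hour at which the pups were killed.

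The mammalian clock is a transcriptional loop with a period of about a day that runs in nearly every cell, lung epithelium and fibroblasts included. BMAL1 pairs with CLOCK or with its close relative NPAS2 and activates genes through E-box motifs, among them the *Per* and *Cry* genes, whose proteins feed back to block the pair. The same pair activates *Nr1d1* and *Nr1d2*, which encode REV-ERB alpha and beta, and these repress *Arntl*, *Npas2*, *Clock* and *Cry1* through elements shared with the ROR receptors. DBP and TEF are bZIP activators of D-box motifs, and *Dbp* is among the strongest outputs of the loop. In a running clock *Arntl* and *Npas2* therefore peak at a different hour from *Dbp*, *Nr1d1* and *Per3*, so that levels in a single sample depend on the hour of collection. Glucocorticoid hormone, heat and feeding reset the loop in peripheral organs.

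Stretches of the promoters of 5 genes are printed here because they hold the E-box, D-box or ROR/REV-ERB motifs of this loop. Promoters of 9 of the 10 genes, 13 in all, were matched by symbol in RefSeq (GRCm38.p6, from 250 bases before to 50 after the start site). Each motif was searched on both strands among 32851 mouse promoters. The E-box CACGTG was in 7.15% of all promoters and in those of *Cry1* and *Tef*. A variant E-box, CACGTT, was in 4.68% and in those of *Cry1* and *Nr1d1*. The D-box TTANGTAA was in 2.32%, and *Per3* carried it at 2 places. The ROR/REV-ERB element TNGGTCA was in 11% and in promoters of *Arntl*, *Per3* and *Tef*. No motif overlapped another in the stretches below, which are written 5′ to 3′ along the gene, with the motifs in capitals as they read on that strand.
*Arntl*, chr7:113207245-113207310, plus strand, with 2 ROR/REV-ERB elements: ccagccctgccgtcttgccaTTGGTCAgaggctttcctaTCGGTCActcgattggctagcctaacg
*Cry1*, chr10:85185089-85185153, minus strand, with a variant E-box read on the other strand and an E-box: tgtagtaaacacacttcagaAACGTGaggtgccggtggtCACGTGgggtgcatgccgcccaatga
*Per3*, chr4:151044757-151044890, minus strand, with 2 D-boxes and a ROR/REV-ERB element read on the other strand: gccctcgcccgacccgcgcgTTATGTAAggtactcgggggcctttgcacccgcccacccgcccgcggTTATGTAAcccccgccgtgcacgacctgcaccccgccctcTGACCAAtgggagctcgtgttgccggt
*Nr1d1*, chr11:98775380-98775425, minus strand, with a variant E-box read on the other strand: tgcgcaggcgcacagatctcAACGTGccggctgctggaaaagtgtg
*Tef*, chr15:81802526-81802571, plus strand, with an E-box: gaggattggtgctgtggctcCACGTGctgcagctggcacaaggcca
All 5 stretches lie upstream of the start site. The *Arntl* stretch belongs to a start site inside the annotated gene body, which spans chr7:113178471-113314126. A motif is a match of letters and was not tested for binding in these lungs.

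Each value below is a normalized count, the reads on a gene in 1 lung divided by that lung's size factor, and the 4 tables were normalized separately. Divided by exon length in kb (GENCODE, mm10), *Tef* had the highest control level in all 4 tables, between 403 and 548 normalized counts per kb. *Npas2* had the lowest, between 40.6 and 63.9, with *Dbp* next to it, between 60.8 and 84.2. *Tef* stood above the next gene, *Nr1d2* or *Cry1*, by more than the sum of their SDs (n = 3 lungs, or 2 for *Arntl*, *Clock* and *Dbp* in the P5 *Ror2* table) in all 4 tables. The 7 genes in the middle, *Cry1*, *Nr1d2*, *Nr1d1*, *Per2*, *Per3*, *Clock* and *Arntl*, lay between 97.7 and 251, and no neighbours in that order differed by more than the sum of their SDs in any table. *Dbp* stood above *Npas2* by more than that sum in 3 tables, and in the P2 *Ror2* table it did not.

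Several lungs stood apart and are named where a result rests on them. Between 16178031 and 21546673 reads fell on genes in 23 lungs and 13823693 in control 1 of the P5 *Ror2* table, which had no reads over most of chromosomes 5 to 9 and X. This lung was set to missing for the genes there, so that *Arntl* and *Dbp* (chromosome 7) and *Clock* (chromosome 5) rest on 2 controls in that table. In the P5 *Vangl2* table, control 3 had a summed normalized count of 3528 for the liver genes *Alb* and *Cps1*, against at most 34.1 in the other 5 lungs. Mutant 3 of that table had 9773 for the lymphocyte and thymus genes *Cd3e* and *Rag1*, against at most 60.5 in the other 5 lungs. In the P2 *Ror2* table, control 3 had 22214 for the neutrophil genes *S100a8*, *S100a9* and *Ngp*, against at most 5948 in the others. *Vangl2* itself was 249 to 302 in P2 controls and 173 to 241 in P2 mutants, and 292 to 369 and 148 to 170 at P5, with no overlap at either age (adjusted p = 0.241 and 0.0604). *Ror2* was lower on average in its mutants, by limma log2 fold changes of -0.38 at P2 and -0.16 at P5 (adjusted p = 0.250 and 0.691), with overlapping ranges at both ages. Epithelial markers such as *Sftpc* and *Nkx2-1* were present in all lungs with a value (at least 3025).

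**Figure D1:**
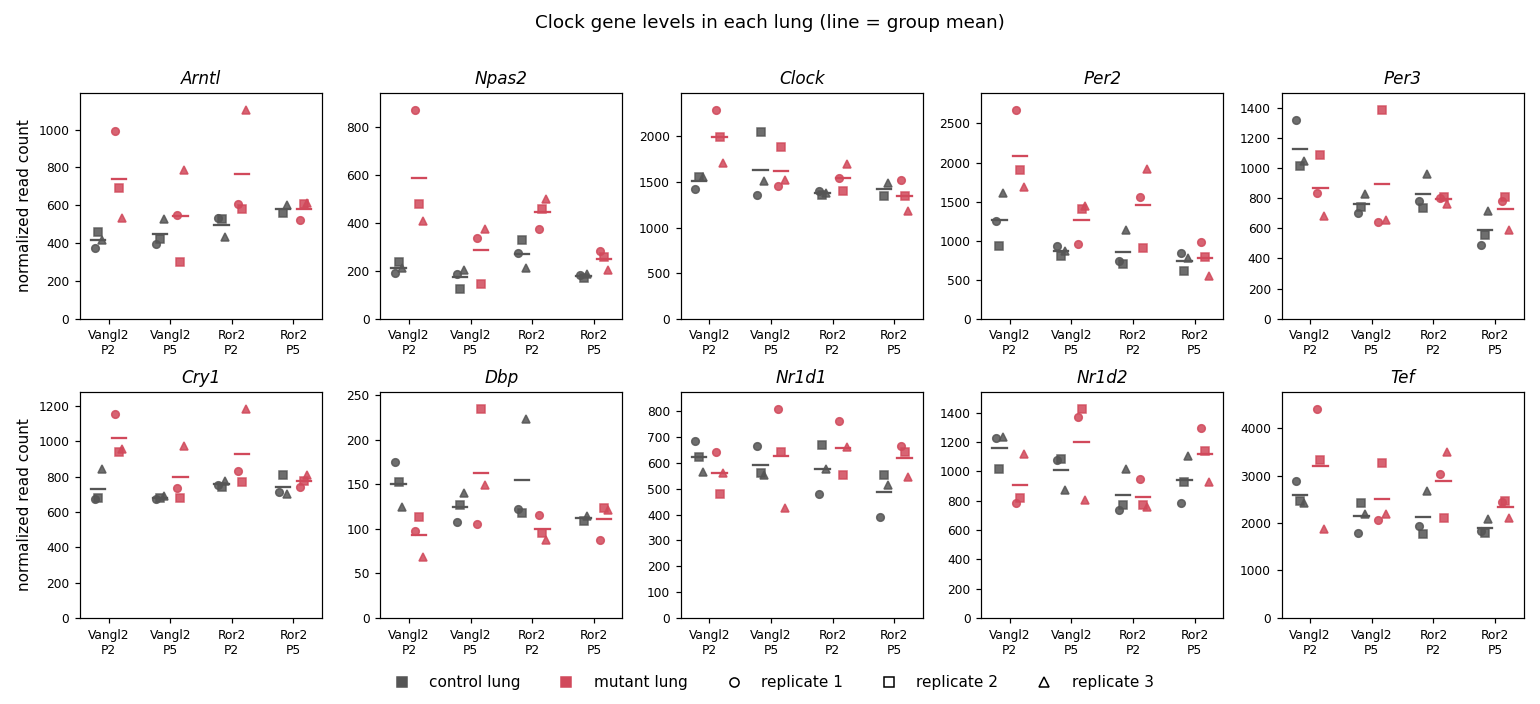
Normalized read counts (vertical axis, from 0) of the 10 clock genes in each of 24 lungs, with control lungs in grey, mutant lungs in red, the replicate number as the symbol and the group mean as a line; tables were normalized separately, so groups are to be compared within a pair. In the P2 *Vangl2* pair the red points of *Npas2* (407 to 870.3) all lie above the grey points (189 to 236), while in the P5 *Vangl2* pair mutant 2 (square) is the highest of its 6 lungs for *Per3* and *Dbp* and the lowest for *Arntl*.

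Of the positive arm of the clock, *Npas2* rose in P2 *Vangl2* mutant lungs, and *Arntl* and *Clock* lay above all controls without passing the test. *Npas2*, the partner of BMAL1, was 189, 236 and 212 in the controls and 870.3, 476 and 407 in the mutants, so that the lowest mutant lung was above the highest control. It rose 2.61-fold (log2 fold change 1.38, SE 0.27, adjusted p = 0.0396, limma with Benjamini-Hochberg adjustment over 17448 genes). Mutant 1 had the largest value, and mutants 2 and 3 were close to each other. *Arntl*, which encodes BMAL1, was 376, 457 and 418 in controls and 992, 693 and 531 in mutants (log2 fold change 0.78, SE 0.22, adjusted p = 0.0938). *Clock* was 1418, 1554 and 1551 in controls and 2293, 1995 and 1703 in mutants (log2 fold change 0.40, SE 0.12, adjusted p = 0.118). For all 3 genes every mutant lung was above every control lung, with mutant 1 highest and mutant 3 lowest. The *Npas2* call held without mutant 1 (adjusted p = 0.0256) or mutant 3 (0.0138), and it was lost without control 1 (0.122), control 2 (0.169), control 3 (0.154) or mutant 2 (0.0966), with log2 fold changes between 1.06 and 1.60 in these fits.

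Of the repressors of the loop, *Per2* and *Cry1* were higher in the P2 *Vangl2* mutants without overlap and *Per3* was not. *Per2* was 1246, 936 and 1608 in controls and 2676, 1906 and 1683 in mutants (log2 fold change 0.73, SE 0.23, adjusted p = 0.12). Mutant 3 lay only just above control 3. *Cry1* was 671, 680.0 and 843 in controls and 1156, 939 and 955 in mutants (log2 fold change 0.48, SE 0.14, adjusted p = 0.0964). *Per3*, a period gene whose loss leaves the core loop running, was 1319, 1014 and 1045 in controls and 836, 1083 and 683 in mutants, with mutant 2 inside the control range (log2 fold change -0.39, SE 0.18, adjusted p = 0.255). None of the 3 passed the test.

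The REV-ERB genes and the D-box activators did not move as a block in these lungs. *Dbp* was 175, 153 and 125 in controls and 97.2, 113 and 68.2 in mutants, so every mutant lung was below every control (log2 fold change -0.71, SE 0.25, adjusted p = 0.152). *Nr1d1* was 685, 625 and 566 in controls and 641, 481 and 561 in mutants, with the ranges overlapping (log2 fold change -0.16, SE 0.14, adjusted p = 0.532). *Nr1d2* was 1225, 1017 and 1234 in controls and 780.4, 820.2 and 1114 in mutants. Mutants 1 and 2 were below all controls and mutant 3 was among them (log2 fold change -0.37, SE 0.16, adjusted p = 0.217). *Tef* was spread widely in the mutants, at 4406, 3337 and 1877 against 2877, 2453 and 2415 in controls, with mutants 1 and 2 above and mutant 3 below all controls (log2 fold change 0.23, SE 0.28, adjusted p = 0.658).

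Counted over the 10 clock genes, 1 passed the adjusted threshold in the P2 *Vangl2* comparison, where 3.59% of all genes tested did. At an unadjusted p under 0.05 there were 7 of 10 (22.5% of all genes). All mutant lungs lay above all controls for 5 of 10 (14.6% of all genes) and below them for 1 of 10 (14.9%). The median log2 fold change of the 10 was 0.31 against 0.00 over all genes tested. For the 6 genes without overlap the exact two-sided permutation p was 0.1, the smallest that 3 lungs against 3 can give. Without mutant 3 the count of clock genes called was 5 (*Npas2*, *Arntl*, *Clock*, *Nr1d2* and *Tef*) where 13.2% of all genes passed. Without any 1 control or without mutant 2 it was 0, in fits where between 0.00573% and 0.659% of all genes passed. Markers of cell types differed as well: the neutrophil genes *S100a8*, *S100a9* and *Ngp* all rose (*Ly6g*, also listed, was not analysed here), with a summed normalized count of 2226 to 3601 in controls and 6125 to 9891 in mutants, and the summed macrophage genes (*Marco*, *Csf1r*, *Cd68*) were 2130 to 2336 and 2842 to 3198. Mesenchymal markers (*Col1a1*, *Pdgfra*, *Acta2*) summed to 46235 to 54467 in controls and 31087 to 39097 in mutants, and erythroid markers to 2252 to 4749 and 969.5 to 1115. Epithelial markers summed to 389684 to 479507 in controls and 480289 to 596473 in mutants, and 5 of 6 were higher without overlap. Their part in the clock gene values was not tested, and in whole lobes fewer cells of a type and less RNA per cell cannot be told apart.

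At P5 the *Vangl2* mutants were spread widely around their controls, and none of the 10 clock genes passed the test. *Per2* was the only gene without overlap, at 925, 798 and 865 in controls and 959.5, 1407 and 1441 in mutants (log2 fold change 0.54, SE 0.18, adjusted p = 0.176). *Npas2* was 188, 123 and 205 in controls and 337, 143 and 374 in mutants (log2 fold change 0.64, SE 0.38, adjusted p = 0.411). Mutants 1 and 3 were above all controls and mutant 2 was among them. *Arntl* was 398, 422 and 526 in controls and 551, 298 and 788 in mutants, mutant 2 being the lowest and mutant 3 the highest of the 6 lungs (log2 fold change 0.18, SE 0.33, adjusted p = 0.812). *Per3* was 702, 742 and 828 in controls and 643, 1386 and 654 in mutants, with mutant 2 far above the rest (log2 fold change 0.14, SE 0.29, adjusted p = 0.828). *Dbp*, at 108, 127 and 140.1 in controls and 105, 235 and 149 in mutants, was also highest in mutant 2 (log2 fold change 0.31, SE 0.31, adjusted p = 0.635). Mutant 2 was thus highest for *Per3*, *Dbp*, *Nr1d2* and *Tef* and lowest for *Arntl*. Mutant 3 was highest for *Arntl*, *Npas2*, *Cry1* and *Per2* and lowest for *Nr1d1* and *Nr1d2*.

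The remaining members of the P5 *Vangl2* table all overlapped between groups. *Cry1* was 671, 682 and 690.3 in controls and 737, 677 and 976 in mutants. *Nr1d1* was 668, 561 and 554 and 810.1, 642 and 424, and *Nr1d2* 1077, 1086 and 872 and 1371, 1426 and 802, in the same order. Log2 fold changes of *Cry1*, *Nr1d1*, *Nr1d2*, *Clock* and *Tef* were between 0.00 and 0.21, with adjusted p between 0.541 and 1.00. The median of the 10 was 0.21. The count of clock genes called was 0 of 10 where 0.563% of all genes passed, with 1 of 10 at an unadjusted p under 0.05 (18.8% of all genes), and edgeR and DESeq2 called 0 of 10 as well. All mutants were above all controls for 1 of 10 (13.2%) and below for 0 of 10 (12.5%). Leaving out control 3, the lung with liver transcripts, or mutant 3, the lung with thymus transcripts, also gave 0 calls among the 10, where 0.109% and 0% of all genes passed, and *Npas2* had log2 fold changes of 0.78 and 0.39 in these fits. Neutrophil genes summed to 2867 to 3773 in controls and 6955 to 17784 in mutants, and macrophage genes to 1803 to 2414 and 3257 to 3683. Epithelial markers summed to 201573 to 338382 in controls and 380561 to 513872 in mutants. Endothelial markers (*Pecam1*, *Cdh5*, *Kdr*) summed to 50699 to 59694 and 28120 to 44210, and mesenchymal markers to 47514 to 66444 and 20548 to 46708. None of these 5 sums overlapped between the groups, and their part in the clock gene values was not tested.

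In P2 *Ror2* mutant lungs the same 3 activators were above all controls, again with *Npas2* first, and none passed the test. *Npas2* was 272, 326 and 213 in controls and 373, 455 and 500.0 in mutants (log2 fold change 0.72, SE 0.19, adjusted p = 0.203). *Arntl* was 530.1, 527 and 432 in controls and 607, 580.3 and 1105 in mutants, the value of mutant 3 standing far above the other 5 lungs (log2 fold change 0.56, SE 0.25, adjusted p = 0.266). *Clock* was 1399, 1357 and 1378 in controls and 1545, 1402 and 1699 in mutants (log2 fold change 0.16, SE 0.087, adjusted p = 0.332). These 3 gaps were narrow at the nearest lungs, with control 2 and mutant 1 of *Npas2* at 326 and 373. *Dbp* was 123, 118 and 224 in controls and 116, 95.8 and 87.2 in mutants, below without overlap (log2 fold change -0.57, SE 0.28, adjusted p = 0.302). Here too the gap was narrow, with control 2 and mutant 1 at 117.6 and 116.1. Control 3, the lung rich in neutrophil transcripts, had the lowest *Arntl* and *Npas2* of its 3 controls. It had the highest *Dbp*, *Per3*, *Per2*, *Cry1*, *Nr1d2* and *Tef* of them. Without control 3 the log2 fold change of *Npas2* was 0.56 (adjusted p = 0.276) and that of *Dbp* was -0.28.

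*Per2* was 745, 703 and 1130.0 in controls and 1559.7, 903 and 1915 in mutants of the P2 *Ror2* table, with mutant 2 inside the control range (log2 fold change 0.73, SE 0.30, adjusted p = 0.248). *Cry1* was 754, 743 and 778 in controls and 831, 769.9 and 1185 in mutants, and mutant 3 was again the highest lung (log2 fold change 0.27, SE 0.16, adjusted p = 0.377). *Tef* was 1944, 1758 and 2665 in controls and 3042, 2096 and 3500.1 in mutants (log2 fold change 0.43, SE 0.22, adjusted p = 0.32). *Per3*, *Nr1d1* and *Nr1d2* had log2 fold changes of -0.05, 0.20 and -0.02. With limma, 0 of the 10 genes and 0% of all genes passed, and 2 of 10 had an unadjusted p under 0.05 (19.3% of all genes, 3380 in number). DESeq2 on the recovered reads called 1 of 10, *Npas2* (adjusted p = 0.0275), and 5.9% of all genes, and edgeR called 0 of either. Without mutant 2 the count was 1, *Per2* (adjusted p = 0.0488), where 4.84% of all genes passed. The median log2 fold change of the 10 was 0.23. All mutants were above all controls for 3 of 10 (13.4% of all genes) and below for 1 of 10 (12.2%). Summed markers overlapped between the groups for every list but liver, which was 25.8 to 45.04 in controls and 9.02 to 21.0 in mutants.

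In the P5 *Ror2* comparison the median log2 fold change of the 10 genes was 0.16, and none passed the test. *Npas2* was 181, 169.7 and 187 in controls and 281, 258 and 202 in mutants (log2 fold change 0.45, SE 0.15, adjusted p = 0.189). *Tef* was 1835, 1786 and 2077 in controls and 2446, 2459 and 2100.3 in mutants (log2 fold change 0.30, SE 0.091, adjusted p = 0.173). These were the genes without overlap, and in both the nearest mutant lung, mutant 3, lay close to the highest control. *Nr1d1* was 391, 554 and 514 in controls and 666, 641 and 547 in mutants, with mutant 3 inside the control range (log2 fold change 0.36, SE 0.14, adjusted p = 0.247). On 2 controls, *Arntl* was 560.3 and 602 against 523, 608 and 612 in mutants. *Clock* was 1349 and 1493 against 1522, 1351 and 1180.4, and *Dbp* was 109 and 114 against 87.7, 123 and 121. Their log2 fold changes were 0.00, -0.08 and -0.03, with SEs of 0.11, 0.12 and 0.22. *Per2*, *Per3*, *Cry1* and *Nr1d2* had log2 fold changes of 0.03, 0.31, 0.07 and 0.26. Of all genes 0.182% passed the adjusted threshold, and edgeR and DESeq2 also called 0 of the 10. At an unadjusted p under 0.05 there were 3 of 10 clock genes (18.6% of all genes), and the 10 genes included 2 above all controls (15.6%) and 0 below (14.4%). In this table epithelial markers summed to 277550 to 288504 in the 2 controls with values and 310585 to 389854 in mutants. Endothelial markers summed to 49904 to 54639 and 44353 to 49585, and mesenchymal markers to 49957 to 50445 and 30395 to 47018. None of these 3 sums overlapped, and their part in the values of the table was not tested.

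**Figure D2:**
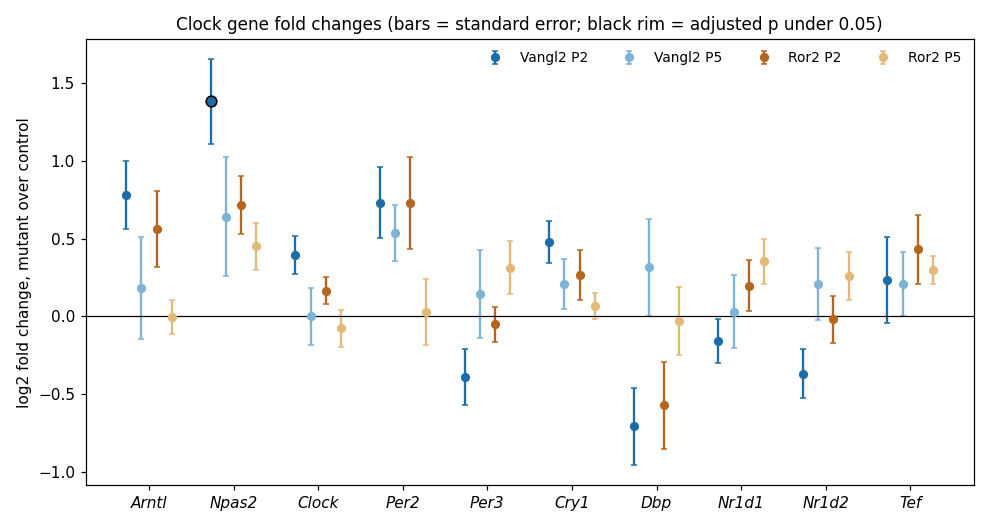
Log2 fold changes (mutant over control, vertical axis) of the 10 clock genes in the 4 comparisons, shown by colour, with bars of 1 standard error from limma and a black rim for an adjusted p under 0.05. The rimmed point is *Npas2* in the P2 *Vangl2* comparison (1.38), and *Npas2* lies above 0 in all 4, from 0.45 to 1.38, as do *Per2*, *Cry1* and *Tef*.

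*Npas2* had a positive log2 fold change in all 4 comparisons (1.38, 0.64, 0.72 and 0.45, in the order P2 and P5 *Vangl2*, P2 and P5 *Ror2*), and *Arntl* had 0.78, 0.18, 0.56 and 0.00. *Per2*, *Cry1* and *Tef* were also positive in all 4. *Dbp* had -0.71 and -0.57 at P2 and 0.31 and -0.03 at P5. Whether these effects differed was tested with limma as a difference of effects over the 12 lungs of 2 tables, each with its own controls. None of the 10 genes passed in any of the 4 contrasts. For P5 minus P2 in the *Vangl2* lungs, 0% of all genes passed and 8.44% had an unadjusted p under 0.05. In the 4 contrasts *Dbp* here was the only clock gene under that level, with a difference of 1.02 (SE 0.41, unadjusted p = 0.0285, adjusted p = 0.577), and the difference of *Npas2* was -0.74 (SE 0.51, adjusted p = 0.681). For P5 minus P2 in the *Ror2* lungs the shares of all genes were 0% and 9.52%, and the difference of *Per2*, the greatest of the 10, was -0.70 (SE 0.41, adjusted p = 0.598). Between *Vangl2* and *Ror2* mutants the shares were 0% and 4.6% at P2 and 0.0119% and 4.74% at P5. *Npas2* differed by 0.66 (SE 0.36, adjusted p = 0.946) between the mutants at P2, and *Per2* by 0.51 (SE 0.30, adjusted p = 0.998) at P5.

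A ratio of 2 genes within a lung does not depend on the size factor, and it sets the positive arm against the output arm in each lung. The log2 ratio of *Arntl* to *Dbp* was 1.10, 1.58 and 1.75 in P2 *Vangl2* controls and 3.35, 2.62 and 2.96 in the mutants. In the P2 *Ror2* lungs it was 2.11, 2.16 and 0.95 in controls and 2.39, 2.60 and 3.66 in mutants. All mutants were above their controls in both P2 tables, by a wider margin in the *Vangl2* lungs. The lack of overlap is no further result, since *Arntl* was higher and *Dbp* lower without overlap in both tables. At P5 the *Vangl2* controls lay close together, at 1.89, 1.73 and 1.91, and their mutants were on both sides of them, at 2.39, 0.34 and 2.40. The P5 *Ror2* lungs all lay between 2.30 and 2.58, the 2 controls with values at 2.36 and 2.40. The log2 ratio of *Npas2* to *Nr1d1* was -1.86 to -1.40 in P2 *Vangl2* controls and -0.46 to 0.44 in mutants, again without overlap. That is no further result either, since *Npas2* alone did not overlap in these lungs. In the other 3 tables this ratio overlapped between groups, with controls from -2.18 to -1.44 and mutants from -2.16 to -0.18 in the P5 *Vangl2* lungs. No test was run on the ratios.

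**Figure D3:**
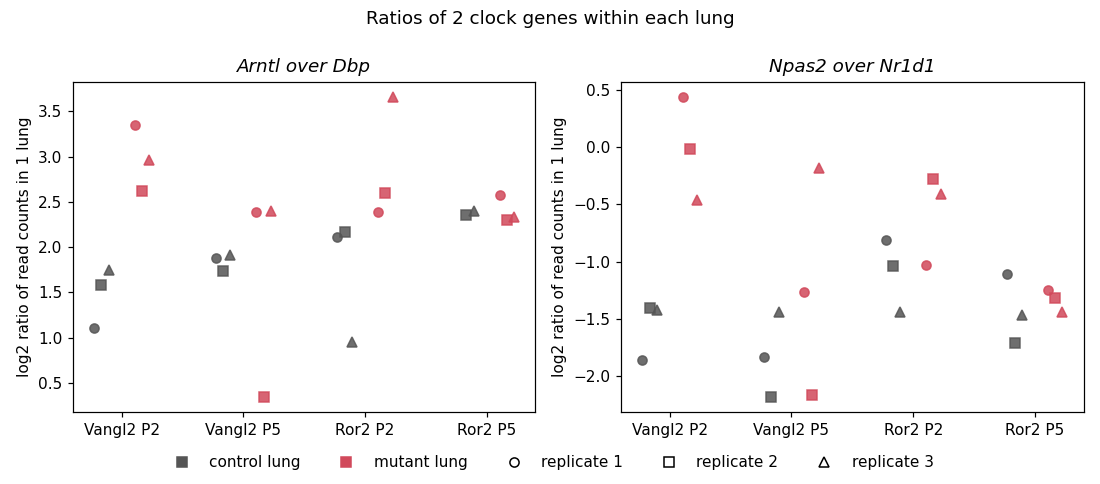
Log2 ratio of read counts of *Arntl* over *Dbp* (left) and *Npas2* over *Nr1d1* (right) in each lung, with controls in grey, mutants in red and the replicate number as the symbol. On the left the P2 *Vangl2* mutants (2.62 to 3.35) lie above their controls (1.10 to 1.75), and P5 *Vangl2* mutant 2 (0.34) is the lowest point of all.

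Lungs of the same group differed in their clock genes, and some of these genes differed together. Each lung's deviation from the mean of its own group was taken on the log2 scale, and deviations of 2 genes were correlated over all lungs (24, or 23 with *Arntl*, *Clock* or *Dbp*). *Arntl* went with *Npas2* (Pearson's r = 0.79) and with *Cry1* (0.77) and against *Nr1d2* (-0.72) and *Per3* (-0.48). *Per3* went with *Dbp* (0.72) and *Tef* (0.62), *Clock* with *Tef* (0.73), *Per2* with *Tef* (0.65) and *Nr1d1* with *Nr1d2* (0.62). *Npas2* went against *Nr1d2* (-0.53), *Dbp* (-0.48) and *Per3* (-0.47). *Nr1d1* showed little relation to *Per2* (0.01), *Npas2* (0.03) or *Clock* (0.04). Several of these r rest in part on P5 *Vangl2* mutants 2 and 3, the latter being the lung with thymus transcripts. Their deviations were -0.76 and 0.64 for *Arntl*, -0.87 and 0.51 for *Npas2* and 0.30 and -0.53 for *Nr1d2*. No r was taken without them. The values are descriptive, since deviations within a group of 3 sum to 0 and genes of 1 lung share its library and its depth.

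**Figure D4:**
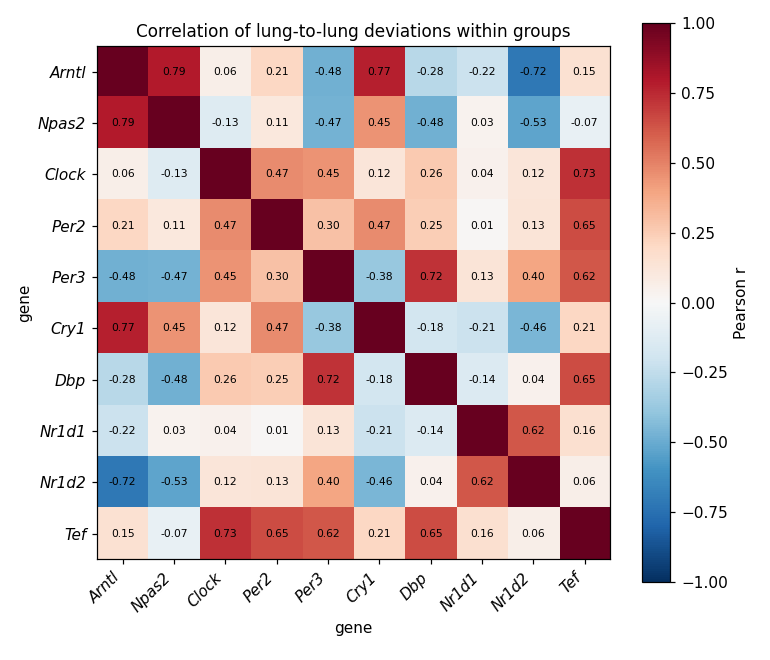
Pearson's r between the deviations of each pair of clock genes (both axes) from their group means over 23 or 24 lungs, from -1 in blue to 1 in red. *Arntl*, *Npas2* and *Cry1* form a red group (0.45 to 0.79), and *Arntl* and *Nr1d2* form the bluest square (-0.72).

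Among 12597 other genes with a mean normalized count of at least 50 in each table, *Nr1d2* was the clock gene closest to *Nr1d1* by the same measure, at rank 76. The 8 genes with the highest r were *Gprc5a* (0.76), *Chst5* (0.75), *Wwtr1* (0.75), *Ece1* (0.73), *Klhl26* (0.72), *Cobll1* (0.72), *Sms* (0.72) and *Olfm1* (0.71). The 8 with the lowest were *Tyw3* (-0.79), *Wdr55* (-0.78), *Fancm* (-0.78), *Gimap9* (-0.75), *Rnmt* (-0.74), *Dkc1* (-0.74), *Dph2* (-0.74) and *A830010M20Rik* (-0.73). *Dbp* (-0.14) and *Arntl* (-0.22) were far from both ends. P5 *Vangl2* mutant 3, the lung with thymus transcripts, had the largest *Nr1d1* deviation of any lung (-0.51). No r was taken without it. These r are descriptive too, as the named genes are the extremes of 12597.

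A further 17 clock genes, the other *Per*, *Cry* and *Ror* genes and regulators of protein turnover among them, were all tested in each table. In the P2 *Vangl2* comparison 0 of 17 passed the adjusted threshold (3.59% of all genes), 8 had an unadjusted p under 0.05 (22.5%), 5 were above (14.6%) and 2 below all controls (14.9%), and the median log2 fold change was 0.07. At P5 the *Vangl2* counts were 0 (0.563% of all genes), 6 (18.8%), 2 (13.2%) and 2 (12.5%), with a median of -0.13. In the P2 *Ror2* comparison they were 0 (0%), 4 (19.3%), 4 (13.4%) and 2 (12.2%), with a median of 0.10. At P5 the *Ror2* counts were 1 (0.182%), 10 (18.6%), 2 (15.6%) and 8 (14.4%), with a median of -0.20. *Bhlhe40*, which encodes DEC1, a repressor of E-box genes, was the gene that passed there, at 1080.4 and 1127 in the 2 controls with values and 664, 606 and 638 in mutants. It fell (log2 fold change -0.80, SE 0.085, adjusted p = 0.0398), and the 2 groups were well apart. The call was lost without mutant 2 (log2 fold change -0.76, adjusted p = 0.283), where 0% of all genes passed. It was also lost without control 1 (adjusted p = 0.0798), where 0.0351% of all genes passed. That lung has no value for *Bhlhe40*, whose log2 fold change stayed at -0.80. Leaving out control 2 or control 3 left *Bhlhe40* with 1 control value, and its log2 fold changes were -0.83 and -0.76. *Bhlhe40* went the other way in P2 *Vangl2*, P5 *Vangl2* and P2 *Ror2* lungs. Its log2 fold changes there were 0.85, 0.30 and 0.13 (adjusted p = 0.273, 0.616 and 0.633), without overlap in P2 *Vangl2* lungs. In the P5 *Vangl2* table, where same-numbered lungs deviated together, a fit with the replicate block brought 1 of 17 under the threshold where 8.95% of all genes passed. This was *Nfil3*, which encodes the D-box repressor E4BP4 (adjusted p = 0.0348, against 0.260 without the block), at 735, 484 and 739 in controls and 535, 328 and 465 in mutants. These ranges overlapped. Without the block the log2 fold change of *Nfil3* was -0.56 there, 0.51 in P2 *Vangl2* and -0.0084 in P2 *Ror2* lungs. In P5 *Ror2* lungs it was -0.81, without overlap (adjusted p = 0.164).

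Of 8 clock output genes none passed in any comparison with limma, and 4, 1, 1 and 0 had an unadjusted p under 0.05 (22.5%, 18.8%, 19.3% and 18.6% of all genes). Their medians were 0.42, 0.22, 0.13 and 0.13 in the same order of comparisons. A list of 12 glucocorticoid-responsive genes, which shares *Per1* with the further clock genes and *Tsc22d3* and *Cdkn1a* with the outputs, had a median of 1.20 in the P2 *Vangl2* comparison, with 12 of 12 above 0 (50.1% of all genes), 10 at an unadjusted p under 0.05 (22.5%) and 0 past the adjusted threshold (3.59%). Its medians were 0.52 in P5 *Vangl2*, 0.53 in P2 *Ror2* and -0.06 in P5 *Ror2* lungs, against -0.01 to 0.00 over all genes. Of the 12, 10 were above 0 in P5 *Vangl2* (50.3% of all genes), 11 in P2 *Ror2* (49.4%) and 5 in P5 *Ror2* lungs (50.5%). *Fkbp5*, a classical target of the glucocorticoid receptor singled out after its values were seen, was 898, 652 and 873 in P2 *Vangl2* controls and 7924, 2396 and 916 in mutants. Mutant 1 was highest and mutant 3 lowest of the mutants, as for *Npas2*, *Arntl*, *Clock*, *Per2* and *Tef* but not for the other clock genes. Of the list, *Tsc22d3*, *Zbtb16*, *Sgk1* and *Dusp1* had the same order. *Klf9*, *Ddit4*, *Errfi1*, *Per1* and *Cdkn1a* were lowest in mutant 2, and *Mt1* and *Mt2* were highest in mutant 3. In the P2 *Ror2* lungs *Fkbp5* was 602, 625 and 582 in controls and 1440.3, 710.2 and 2124 in mutants. Mutant 3 was also the highest of these mutants for *Arntl*, *Npas2*, *Clock*, *Per2*, *Cry1* and *Tef*, and not for the other clock genes. Of the list, *Zbtb16* and *Mt2* were highest in mutant 1 and the rest in mutant 3. The part of these genes in the clock values was not tested.

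Of the 12, *Zbtb16*, which encodes the transcription factor PLZF, passed at P5 in the *Vangl2* lungs, at 91.2, 83.5 and 63.5 in controls and 636, 514 and 564 in mutants. It rose (log2 fold change 2.84, SE 0.21, adjusted p = 0.0118), with the lowest mutant far above the highest control, and without mutant 3, the lung with thymus transcripts, the log2 fold change was 2.85 (adjusted p = 0.0632, with 0% of all genes past the threshold). When lungs of the same number were paired in the fit, 3 of the 12 passed, where 8.95% of all genes did: *Zbtb16* (adjusted p = 0.00283), *Tsc22d3* (0.0184, an output gene as well) and the metallothionein gene *Mt1* (0.0123). *Zbtb16* was also higher on average in P2 *Vangl2*, P2 *Ror2* and P5 *Ror2* mutants, without passing. Its unpaired log2 fold changes there were 2.96, 3.10 and 1.62 (adjusted p = 0.208, 0.203 and 0.182). The groups overlapped in P2 *Vangl2* lungs and not in the *Ror2* lungs.

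**Figure D5:**
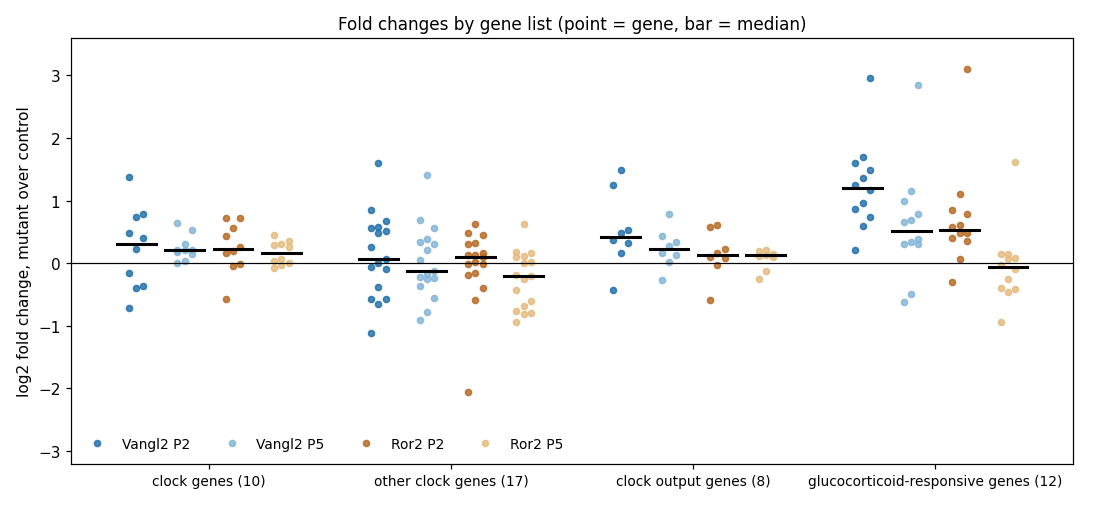
Log2 fold changes (mutant over control, vertical axis) of the 10 clock genes and of the lists of 17 further clock genes, 8 clock output genes and 12 glucocorticoid-responsive genes, 1 point per gene, coloured by comparison, with a black bar at each median. The bar of the glucocorticoid-responsive genes stands at 1.20 in the P2 *Vangl2* comparison, and the bars of the 10 clock genes lie between 0.16 and 0.31.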

How the data were processed

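RNA-seq of the left lobe of 24 mouse lungs was used, in 8 groups of 3 named by the titles in the labels. The deposited signal values are normalized counts: the authors counted reads on genes and scaled each lung by its size factor, separately in each table of 6. The submitters' processing notes name mm10 and DESeq2, and the aligner, the read counter, the annotation and the DESeq2 version are not given in the sources used here. The deposited fold changes and p-values of the authors were not used. The 10 genes, the lists and the tests were chosen with earlier results of these data known. Some listed genes are not reported here.

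Since the tables hold normalized values, a linear model with a trended variance prior (lmFit and eBayes of limma 3.58.1, in R 4.3.3) was run on log2(normalized count + 1), which understates fold changes of low genes. Genes with at least 1 in at least 3 of 6 lungs were tested, unpaired, with Benjamini-Hochberg adjustment over all of them and a threshold of 0.05. Differences of effects were tested over the 12 lungs of 2 tables. Single genes also had an exact two-sided permutation test. For control 1 of the P5 *Ror2* table, 8076 genes on chromosomes 5 to 9 and X were set to missing, and 176 genes of unknown chromosome were left out. Named beyond the 10 were list genes with an adjusted p under 0.05 and the 8 genes most and least like *Nr1d1*, with exceptions named in the text. *Ciart* is listed as *Gm129*. Whole reads were recovered from the steps between values (100% within 0.02 of a whole read) for edgeR (version 4.0.16) and DESeq2 (version 1.42.0), run as alternatives. In 3 lungs (P5 *Vangl2* control 3, P5 *Ror2* controls 2 and 3) the size factor lies close to 1 and the recovery is less certain. Same-numbered P5 *Vangl2* lungs deviated together from their group means (Pearson's r across genes 0.38, 0.34 and 0.24), a pairing seen in the data and not given by the labels. The tests were also run on simulated counts with the same dispersion for every gene and no outlying lungs, unlike these data, and the outcome is not given here. Each lung had 13823693 to 21546673 reads on genes, and each group 3 lungs. Each lung is taken as 1 animal, as the labels give no pooling. Other settings tried were the pseudocount, the filter, no trend, rescaled lungs, a replicate block, all 12 lungs of an age, 1 lung left out, edgeR and DESeq2.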

Additional observations from a re-analysis of the deposited data

How the results depend on the processing

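Of 10 clock genes, 1 passed in the P2 *Vangl2* comparison. The count was 0 without limma's trend, 0 with all 12 lungs of the age in 1 fit, 4 with DESeq2 (*Npas2*, *Arntl*, *Per2*, *Cry1*) and between 0 and 5 with 1 lung left out. *Npas2* passed in 11 of 17 settings, with an adjusted p from 4.2e-05 (DESeq2) to 0.169. In the P2 *Ror2* comparison the count was 0, 1 with DESeq2 and 0 to 1 with 1 lung left out. In the P5 *Vangl2* and P5 *Ror2* comparisons it was 0 in every setting run. The count of all genes called moved more: from 626 in P2 *Vangl2* to 1 (no trend), 50 (12 lungs), 2001 (DESeq2) and 1 to 2308 (1 lung left out); from 98 in P5 *Vangl2* to 4, 859, 1277 and 0 to 53, and 1558 with the replicate block; from 0 in P2 *Ror2* to 2 (no trend), 1 (block), 794 (DESeq2) and 0 to 849; from 31 in P5 *Ror2* to 11, 3, 803 and 0 to 741, with 1 under the block and 1 with control 1 as deposited.

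With the replicate block the adjusted p of *Npas2* in P2 *Vangl2* lungs was 0.0493, and no call among the 10 changed in any table. In the other 3 tables, where r of same-numbered lungs was between -0.11 and 0.21, the numbers were not taken as pairs; *Bhlhe40* in P5 *Ror2* lungs had an adjusted p of 0.0614 with the block and passed in 10 of 18 settings, and *Zbtb16* in P5 *Vangl2* lungs in 16 of 17. Some log2 fold changes turned sign. *Clock* in P5 *Vangl2* lungs was 0.0067 with rescaled lungs and 0.00017 with edgeR. In P5 *Ror2* lungs *Arntl* was 0.00012 with rescaled lungs and 0.070 with the block, and *Dbp* was 0.13 with the block. With control 1 as deposited, *Arntl*, *Clock*, *Dbp* and *Bhlhe40* were 3.06, 3.41, 2.24 and 2.57, since that lung is listed at 0 for them. With 1 lung left out, *Tef* ranged from -0.040 to 0.58 in P2 *Vangl2* lungs. In P5 *Vangl2* lungs *Clock* ranged from -0.13 to 0.17, *Nr1d1* from -0.18 to 0.28, *Per3* from -0.22 to 0.33 and *Arntl* from -0.14 to 0.56. In P2 *Ror2* lungs *Per3* ranged from -0.13 to 0.061 and *Nr1d2* from -0.13 to 0.13. In P5 *Ror2* lungs *Per2* ranged from -0.16 to 0.25, *Arntl* from -0.056 to 0.070, *Dbp* from -0.11 to 0.13 and *Clock* from -0.17 to 0.015. Apart from the effect of control 1 as deposited, the cause of these shifts was not tested.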

Other observations

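Genes of the further lists that no rule named were also looked at after their values were seen. *Timeless*, which in mammals serves mainly at the replication fork, was below all controls in all 4 comparisons, with log2 fold changes of -1.12, -0.36, -0.59 and -0.20 (adjusted p = 0.0557, 0.214, 0.203 and 0.257, in the order P2 and P5 *Vangl2*, P2 and P5 *Ror2*). Of all genes tested, 14.9%, 12.5%, 12.2% and 14.4% were below all controls, in the same order. In P2 *Vangl2* lungs *Timeless* was 740.4, 807 and 844 in controls and 242, 390.4 and 522 in mutants. *Per1*, a period gene that also responds quickly to glucocorticoid, was 1087, 919.9 and 4231 in controls and 8683, 2856 and 4801 in mutants there, where control 3 lay within the mutant range. In P5 *Ror2* lungs *Per1* was 4859.6, 4438 and 5269 in controls and 3315, 2489 and 1962 in mutants, below without overlap (log2 fold change -0.94, adjusted p = 0.0867).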
